A study of Mus musculus with 10 samples.

Results

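A set of 10 genes was followed that mark the endothelial cells lining blood vessels, namely Pecam1, Cdh5, Tie1, Emcn, Egfl7, Esam, Cldn5, Vwf, Robo4 and Erg. They were chosen by name, though with earlier results of these data known. All 10 are among the 41249 genes counted, and all 10 passed the filter on low counts. RNA of the whole interscapular brown adipose tissue (iBAT) had been sequenced from 5 Axl KO and 5 wild-type (WT) mice, 1 library per mouse. The Axl KO mice carried in every cell, as a germline change, a knockout-first allele whose cassette with a splice acceptor, lacZ and neomycin resistance lies within an intron of Axl, and the WT mice are described as littermates. Per the paper all 10 mice were males, and the allele, made from 2 ES cell clones, had been bred with C57BL/6 mice. They received a high-fat diet (HFD) for 24 weeks from an age of 6 to 8 weeks at room temperature, as the deposited design text has it. The paper puts the start at an older age and the diet slightly longer. Because the allele is whole-body and the tissue was not sorted, the values average over vessels, adipocytes, connective tissue and immune cells, and a smaller number of endothelial cells and less RNA per endothelial cell cannot be told apart.

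Brown fat is among the most densely vascularised tissues. Its capillaries deliver oxygen and fatty acids to the adipocytes and carry heat away. Endothelial cells hold to each other through adherens junctions, built around VE-cadherin, and tight junctions, in which claudins close the gap between cells, and their identity is kept by transcription factors of the ETS family such as ERG. AXL itself is a receptor tyrosine kinase that endothelial cells and macrophages are known to express.

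The total count was between 5431014 and 9580215 reads per mouse. Axl, the check of the labels, was at 1.57 ± 0.646 CPM in Axl KO against 43.1 ± 5.86 CPM in WT mice (CPM, counts scaled to 1000000 reads; SD, n = 5 each). Of 13739 tested genes it alone, 1 gene or 0.00728%, passed the threshold of 0.05 after Benjamini-Hochberg adjustment of edgeR's quasi-likelihood p. At an unadjusted p under 0.05, 1154 genes or 8.4% of those tested were called, 3.86% as lower and 4.54% as higher in Axl KO mice.

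No endothelial identity gene passed the adjusted threshold in the comparison of Axl KO with WT mice, and 8 of the 10 had a mean below that of WT, against 50.2% of all tested genes with a log2 fold change below 0. The median log2 fold change of the 10 was -0.17, that is 88.7% of the WT level, beside a median of -0.00059 over all tested genes. Cldn5, the tight junction gene of endothelium, stood lowest at 59.4% of the WT level, and Egfl7 followed at 80.6%. Pecam1 and Vwf differed least, with Axl KO means at 97.1% and 100.03% of WT, and Emcn was at 108.7%. By edgeR's unadjusted p, 2 of the 10 genes, Cldn5 and Egfl7, lay under 0.05, both on the lower side, beside the 8.4% of all genes and the 3.86% called lower. DESeq2, a second count test, called 9 of 13737 genes or 0.0655% after adjustment and none of the 10, and by its unadjusted p the same 2 genes, beside 6.93% of all. For 0 of the 10 did the groups separate without overlap, beside 1.35% of all tested genes, or 0.619% in the lower direction.

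**Figure D1:**
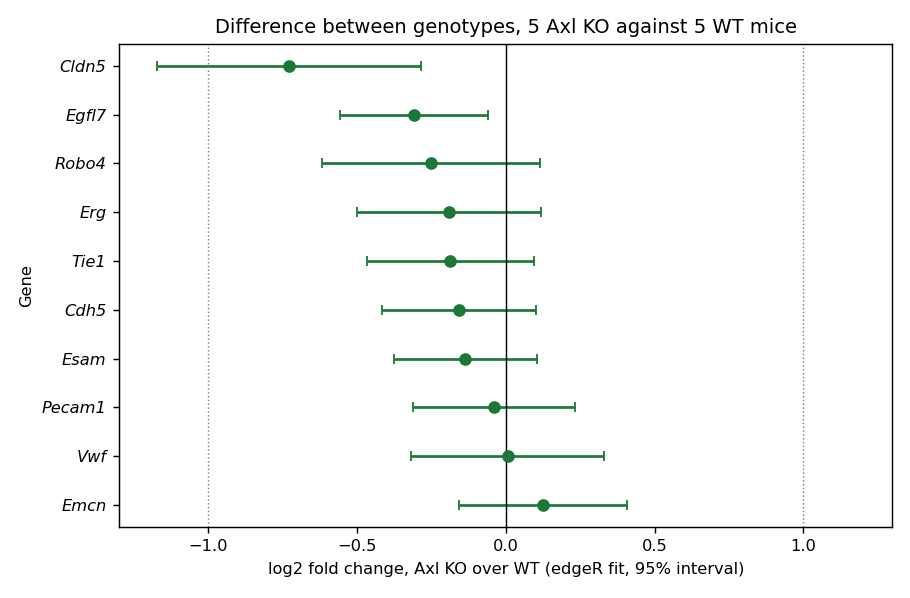
Difference of Axl KO from WT mice for each endothelial identity gene (x axis, log2 fold change, edgeR fit; y axis, genes from the lowest value down); points are estimates, bars 95% intervals, and dotted lines mark a change of 1 on the log2 scale. The intervals of Cldn5 and Egfl7 lie below 0 and the other 8 include 0.

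CLDN5 is the claudin that seals endothelial tight junctions. Its gene (ENSMUSG00000041378) lies on chromosome 16 of GRCm38 from 18776847 to 18778262, on the forward strand, and is annotated with 1 exon. The normalized count was 9.41, 12.6, 18.7, 15.1 and 8.47 CPM in Axl KO replicates 1 to 5, and 20.9, 18.0, 19.8, 19.4 and 30.2 CPM in WT replicates 1 to 5. Of the 5 Axl KO mice 4 were below all WT mice, and Axl KO replicate 3 lay within the range of WT. The raw counts behind these values were between 45 and 240 reads. On average Cldn5 was at 12.9 ± 4.18 CPM in Axl KO against 21.7 ± 4.89 CPM in WT mice (SD, n = 5 each). The log2 fold change was -0.73 (standard error 0.20, 95% interval -1.17 to -0.28), with an unadjusted p of 0.00368 and an adjusted p of 0.571 in edgeR's quasi-likelihood test. It ranked 76 among 13739 genes by p. A two-sided exact permutation test of its log2 CPM alone gave p = 0.0159, where 0.00794 is the smallest that 5 mice against 5 allow. That p is not adjusted for the number of genes compared. Over the other markers the same permutation test gave p = 0.0476 for Egfl7 and between 0.222 and 0.873 for the rest. DESeq2 gave an adjusted p of 0.231. When single mice were left out, the log2 fold change lay between -0.91 (without Axl KO replicate 3) and -0.58 (without WT replicate 5), and the adjusted p between 0.126 and 0.812 in edgeR's test.

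Cldn5 was also set against the other markers within each mouse. Relative to the mean log2 CPM of the other 9 genes in the same mouse, it lay between -2.10 and -1.31 in Axl KO and between -1.15 and -0.83 in WT mice. These ranges did not touch, whereas for each of the other 9 genes the same relative values of the 2 groups overlapped. This is a description of values seen first and was given no test. The measure was applied to the 10 markers only, so the share of all tested genes that would separate on it is not known.

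The start of Cldn5 is shown beside those of Emcn, Tie1, Robo4 and Egfl7, so that the gene with the lowest ratio can be set against one that was not lower and against 3 that share its direction. RefSeq windows (GRCm38.p6) of 300 bases, from 250 before the transcription start to 50 from it on, were at hand for 6 of the 10 genes and made up 10 windows, since Egfl7 and Erg each have 3 starts. Capitals mark AGGAAG, the core that ETS factors bind with its flanks, or AACAGGAA, a composite in which a FOX site adjoins an ETS site. Both were searched on both strands, so that CTTCCT and TTCCTGTT are their other strand. Their matches may overlap, since AACAGGAA followed by G holds AGGAAG.
Cldn5, chr16:18776597-18776896, forward strand: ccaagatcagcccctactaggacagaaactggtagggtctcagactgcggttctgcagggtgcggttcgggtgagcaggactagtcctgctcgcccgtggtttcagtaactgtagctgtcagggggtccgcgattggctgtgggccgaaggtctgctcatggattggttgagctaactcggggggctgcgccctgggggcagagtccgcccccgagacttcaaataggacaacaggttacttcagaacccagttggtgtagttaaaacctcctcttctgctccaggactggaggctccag
Emcn, chr3:137340828-137341127, forward strand: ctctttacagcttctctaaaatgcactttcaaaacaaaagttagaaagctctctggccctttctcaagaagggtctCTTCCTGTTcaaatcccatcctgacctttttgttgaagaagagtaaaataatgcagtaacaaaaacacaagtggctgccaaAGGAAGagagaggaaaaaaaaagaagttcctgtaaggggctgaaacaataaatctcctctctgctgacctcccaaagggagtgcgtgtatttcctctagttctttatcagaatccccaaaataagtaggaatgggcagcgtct
Tie1, chr4:118489800-118490099, reverse strand: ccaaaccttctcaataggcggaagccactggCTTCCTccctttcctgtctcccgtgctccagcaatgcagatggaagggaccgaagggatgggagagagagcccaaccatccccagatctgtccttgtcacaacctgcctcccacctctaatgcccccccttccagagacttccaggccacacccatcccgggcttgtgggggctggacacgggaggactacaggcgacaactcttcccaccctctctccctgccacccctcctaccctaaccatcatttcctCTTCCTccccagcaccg
Robo4, chr9:37401722-37402021, forward strand: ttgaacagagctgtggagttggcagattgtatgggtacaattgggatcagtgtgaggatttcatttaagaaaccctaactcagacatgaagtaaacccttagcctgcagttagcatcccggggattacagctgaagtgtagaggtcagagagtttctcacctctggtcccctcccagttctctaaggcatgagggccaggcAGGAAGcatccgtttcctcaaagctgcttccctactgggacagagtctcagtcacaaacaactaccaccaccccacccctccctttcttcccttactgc
Egfl7, first start, chr2:26580833-26581132, forward strand: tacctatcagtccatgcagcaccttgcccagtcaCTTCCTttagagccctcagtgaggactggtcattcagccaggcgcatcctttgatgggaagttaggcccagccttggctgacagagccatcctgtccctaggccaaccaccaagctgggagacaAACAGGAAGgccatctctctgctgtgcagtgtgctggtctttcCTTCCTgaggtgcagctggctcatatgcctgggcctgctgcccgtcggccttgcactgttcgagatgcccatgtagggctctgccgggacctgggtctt
AGGAAG occurred in 6 of the 10 windows, and in 35.4% of all 32851 windows of the table. AACAGGAA occurred in 2 of the 10, those of Emcn and of the first Egfl7 start, and in 2.65% of all. The Cldn5 window held neither, and nor did the last Egfl7 window and the last 2 Erg windows along the chromosome, which are not printed. TATAAA, the TATA box, was in 1 of the 10 windows, that of the second of the 3 Erg starts along the chromosome, and in 13.6% of all. With the base of the start counted as 0, the composite starts, on the printed strand, at position -173 in Emcn and at -92 in Egfl7, and the AGGAAG of Robo4 at -49. A match of letters is not a bound site, and binding was not measured here.

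The other junction genes had log2 fold changes between -0.16 and -0.04. Cdh5 (ENSMUSG00000031871, chromosome 8 from 104101625 to 104144511), which encodes VE-cadherin, was at 84.6, 92.4, 116.1, 105.7 and 91.6 CPM in Axl KO replicates 1 to 5 and at 99.9, 97.97, 97.8, 107.1 and 145.2 CPM in WT replicates 1 to 5. In Axl KO, 3 mice were below the lowest WT mouse, and WT replicate 5 stood far above the rest. The means of 98.1 ± 12.6 CPM and 109.6 ± 20.3 CPM (SD, n = 5 each) gave a log2 fold change of -0.16 (standard error 0.12, adjusted p = 0.725 in the edgeR test). Pecam1 (ENSMUSG00000020717, chromosome 11 from 106654217 to 106750628), the CD31 antigen that is found at endothelial contacts and also on platelets and leukocytes, was at 92.4, 98.9, 140.9, 96.4 and 104.8 CPM in Axl KO and at 106.9, 105.9, 91.5, 108.1 and 136.8 CPM in WT replicates. A single mouse of each genotype, Axl KO replicate 3 and WT replicate 5, was above 130 CPM and the other 8 were near each other. Its log2 fold change was -0.04 (95% interval -0.31 to 0.23, adjusted p = 0.947 in the edgeR test). Esam (ENSMUSG00000001946, chromosome 9 from 37528078 to 37538319), an adhesion molecule of endothelial tight junctions and platelets, was at 32.5 ± 4.20 CPM against 35.6 ± 5.32 CPM (SD, n = 5 each), and single mice ranged from 27.3 to 37.9 CPM in Axl KO and from 31.0 to 44.0 CPM in WT. Its log2 fold change of -0.14 (95% interval -0.38 to 0.10) was within the spread between mice.

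Emcn and Vwf, the markers that are richest in venous endothelium, showed no lower mean. That is not a result about veins, since 3 of 5 genes tested in a list of venous genes were lower (median log2 fold change -0.093). Emcn (ENSMUSG00000054690, chromosome 3 from 137341067 to 137432185) encodes endomucin, a sialomucin of capillary and venous surfaces. Values of 33.2, 26.9, 31.1, 23.3 and 31.1 CPM in Axl KO replicates 1 to 5 stood against 29.5, 24.9, 19.5, 28.4 and 31.6 CPM in WT replicates 1 to 5. The lowest value was that of WT replicate 3, and the groups overlapped almost wholly. Emcn had a log2 fold change of 0.12 (95% interval -0.16 to 0.41, adjusted p = 0.807 in the edgeR test). Vwf (ENSMUSG00000001930, chromosome 6 from 125546774 to 125686679) encodes von Willebrand factor, which endothelial cells store for haemostasis and megakaryocytes also make. It was at 32.9, 36.1, 36.5, 31.1 and 29.7 CPM in Axl KO and at 37.8, 30.05, 22.4, 31.3 and 44.7 CPM in WT replicates. WT mice spread more widely, with an SD of 8.404 CPM against 2.97 CPM, and their range enclosed that of Axl KO. The log2 fold change of Vwf was 0.0058 (95% interval -0.32 to 0.33), and its sign changed in 5 of the 10 fits that each left out 1 mouse.

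**Figure D2:**
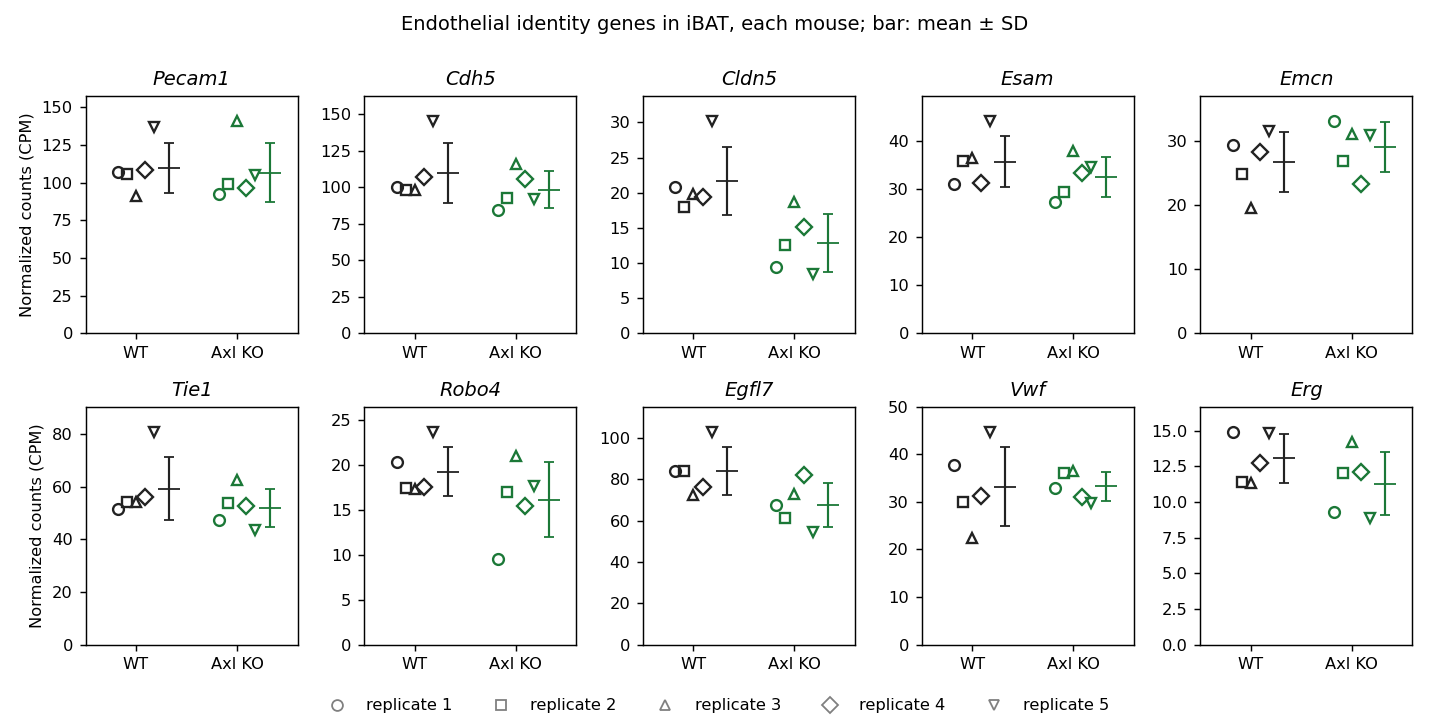
Normalized counts (CPM, y axis from 0) of the 10 endothelial identity genes in each WT (black) and Axl KO (green) mouse; the symbol gives the replicate number and the bar the mean ± SD of 5 mice. In the Cldn5 panel 4 Axl KO mice lie below all WT mice, and WT replicate 5 is the highest WT mouse in 9 of the 10 panels.

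The receptors among the markers leaned the same way without passing the test. Tie1 (ENSMUSG00000033191, chromosome 4 from 118471191 to 118490061), an orphan receptor tyrosine kinase that tunes angiopoietin signaling, was at 47.5, 54.0, 62.7, 52.7 and 43.5 CPM in Axl KO replicates 1 to 5 and at 51.6, 54.3, 54.2, 56.0 and 80.8 CPM in WT replicates 1 to 5. Apart from WT replicate 5, the WT mice lay inside the range of the Axl KO mice. Its log2 fold change was -0.19 with a standard error of 0.13 (edgeR test, adjusted p = 0.700), and without WT replicate 5 it was -0.049. Robo4 (ENSMUSG00000032125, chromosome 9 from 37401897 to 37415115), an endothelial receptor of the roundabout family that steadies vessels, was at 9.57, 17.0, 20.98, 15.4 and 17.7 CPM in Axl KO and at 20.3, 17.5, 17.3, 17.5 and 23.7 CPM in WT replicates. A single mouse, Axl KO replicate 1, was far below the other 9, at 62 reads. Robo4 had a log2 fold change of -0.25 (standard error 0.17, adjusted p = 0.685 in the edgeR test), which was -0.11 without that mouse.

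EGFL7 is a protein that endothelial cells secrete into the matrix around sprouting vessels. The normalized count of Egfl7 (ENSMUSG00000026921, chromosome 2 from 26580014 to 26593120) was 67.4, 61.5, 72.9, 82.1 and 54.4 CPM in Axl KO replicates 1 to 5, and 84.2, 84.1, 72.5, 76.2 and 102.8 CPM in WT replicates 1 to 5. All 5 Axl KO mice were below the WT median and 3 were below the lowest WT mouse. On average it was at 67.6 ± 10.6 CPM against 84.0 ± 11.7 CPM (SD, n = 5 each). The log2 fold change was -0.31 (standard error 0.11, 95% interval -0.56 to -0.060), with an unadjusted p of 0.0189 and an adjusted p of 0.571 in edgeR's test. The two-sided exact permutation test of Egfl7 alone gave p = 0.0476. Without WT replicate 5 the log2 fold change was -0.23 and the unadjusted p in the edgeR test 0.0577.
Egfl7 is also the host of a microRNA of endothelium, whose mature sequence is printed because its gene lies within the counted one, with the seed (bases 2 to 8) in capitals. The mature microRNA was not measured by these libraries, and Mir126a, the precursor's gene, had 26 reads in all 10 mice together.
mmu-miR-126a-3p, chr2:26591402-26591423, forward strand, RefSeq on GRCm38.p6: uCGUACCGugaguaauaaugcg
Other annotated genes run through Egfl7 as well. Its exons share 64 bp with those of Agpat2 on the opposite strand and 264 bp with those of Gm20532 on the same strand. Agpat2, an acyltransferase of triglyceride synthesis that adipocytes express strongly, had 93263 reads over the 10 mice against 5623 for Egfl7. Agpat2 was at 1426 ± 177 CPM in Axl KO against 1165 ± 198 CPM in WT mice (SD, n = 5 each), and Gm20532 at 29.8 ± 3.69 CPM and 31.4 ± 4.06 CPM (SD, n = 5 each). The strand setting of the counting is not given in the sources used here, so the count of Egfl7 is uncertain, and the part of the shared exons in its lower value was not tested. Of the other 9 genes, Cdh5 alone overlaps another annotated gene, one with no reads.

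ERG is the ETS factor that maintains endothelial junction genes. Erg (ENSMUSG00000040732, chromosome 16 from 95359169 to 95586593) was at 9.26, 12.02, 14.2, 12.1 and 8.85 CPM in Axl KO replicates 1 to 5 and at 14.9, 11.4, 11.3, 12.7 and 14.8 CPM in WT replicates 1 to 5. Of the Axl KO mice 2 were below the lowest WT mouse, and the other 3 lay within the WT range. For Erg the log2 fold change was -0.19 (standard error 0.14, 95% interval -0.50 to 0.12, adjusted p = 0.718 in the edgeR test).

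The intervals state what 5 mice per group could show. For 9 of the 10 genes, all but Cldn5, the 95% interval of the log2 fold change lay between -1 and 1, so a change of 2-fold in either direction was outside it. For 8 of the 10 genes, all but Cldn5 and Robo4, a change of 1.5-fold in either direction was outside the interval as well.

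Levels were compared between genes per kb of exon, with all annotated exons of a gene merged, since a long transcript yields more reads. Over the 10 mice Cdh5 was highest at 24.7 CPM per kb. It was followed by Egfl7 (21.2 CPM per kb), Pecam1 (17.4 CPM per kb), Cldn5 (12.2 CPM per kb), Esam (11.9 CPM per kb) and Tie1 (11.3 CPM per kb). Emcn lay at 5.17 CPM per kb, Erg at 3.51 CPM per kb, Robo4 at 3.34 CPM per kb and Vwf at 2.07 CPM per kb. The drop from Tie1 to Emcn was the clearest step, since the ranges of both genes were apart in Axl KO and in WT mice. Cdh5 and Egfl7, Egfl7 and Pecam1, Cldn5 and Esam, Esam and Tie1, and Erg and Robo4 had overlapping ranges in both genotypes. Within single mice, Cldn5 was above Esam in 5 of 5 WT mice and in 0 of 5 Axl KO mice. This order was seen first and given no test, and the share of other gene pairs that would differ so is not known. For Vwf the merged exons, 16.1 kb, take in all annotated transcripts, and a shorter length would raise its level per kb.

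**Figure D3:**
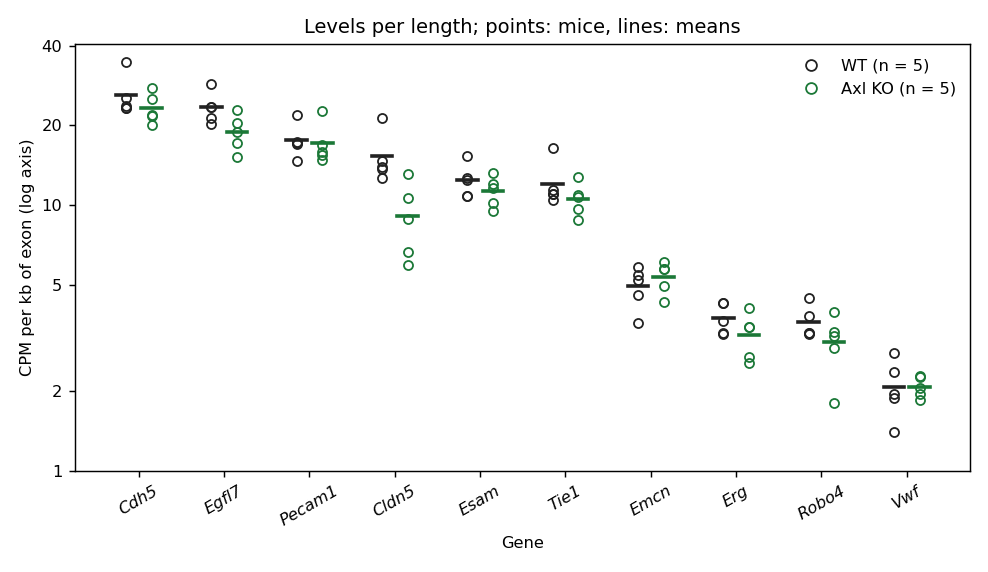
Level of each endothelial identity gene per kb of merged exon (y axis, CPM per kb, log scale) in WT (black) and Axl KO (green) mice, ordered by the mean over 10 mice; circles are mice and lines are means. The order runs from Cdh5 at 24.7 to Vwf at 2.07 CPM per kb, and Cldn5 is the gene with the widest gap between the lines.

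The mean over the 10 genes of log2 CPM, each centred on its own 10-mouse mean, was -0.29, -0.11, 0.19, -0.063 and -0.23 in Axl KO replicates 1 to 5, and 0.11, -0.0035, -0.11, 0.035 and 0.46 in WT replicates 1 to 5. The group means were -0.098 ± 0.19 (SD, n = 5) and 0.098 ± 0.21 (SD, n = 5), so they differed by about the SD within a group. WT replicate 5 had the highest value of all mice for 7 of the 10 genes and was among the 3 highest for 10 of 10. Axl KO replicate 3 was among the 3 highest for 8 of 10, and Axl KO replicate 1 among the 3 lowest for 8 of 10. The lowest value of all came from Axl KO replicate 5 for 4 genes, from Axl KO replicate 1 for 3 and from WT replicate 3 for the other 3. Without WT replicate 5, 7 of the 10 genes were lower in Axl KO mice and their median log2 fold change was -0.049 in place of -0.17. Without Axl KO replicate 1 it was -0.11, also with 7 of 10 lower.

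**Figure D4:**
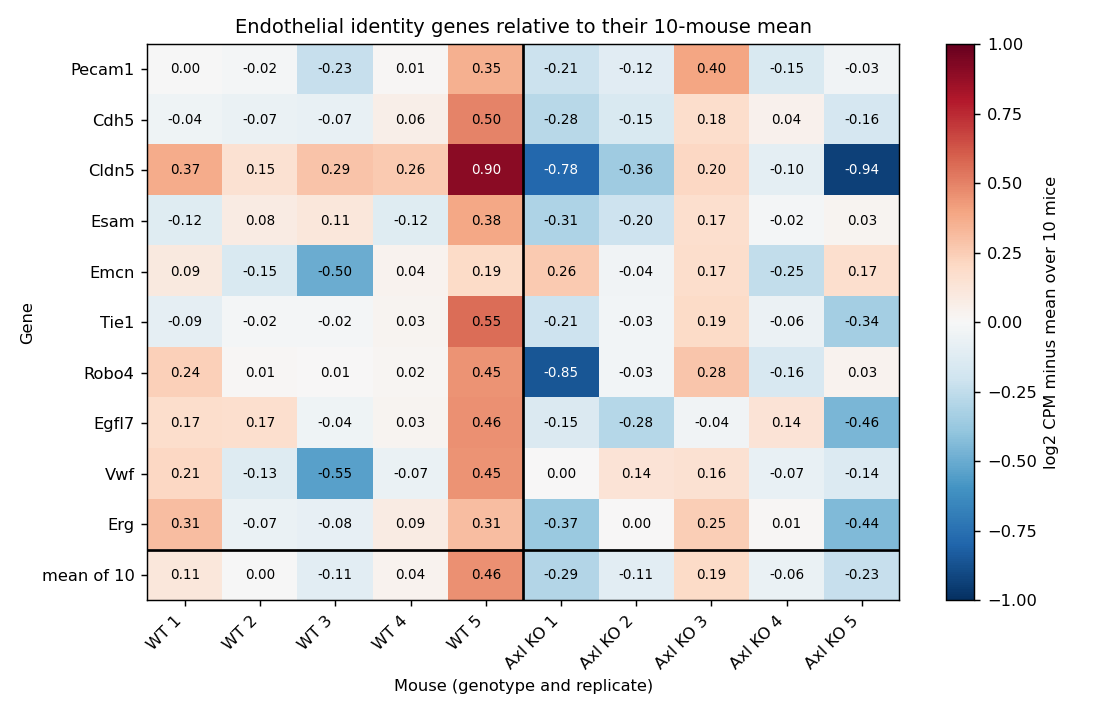
Log2 CPM of each endothelial identity gene (rows) in each mouse (columns), less the mean of that gene over the 10 mice; the bottom row is the mean over the 10 genes, and red is above and blue below the 10-mouse mean. WT replicate 5 is above the mean for all 10 genes, and Axl KO replicates 1 and 5 are lowest for 7 genes between them.

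Across the 10 mice the gene most like the mean of the 10 markers was Ptprb, the vascular endothelial phosphatase that binds VE-cadherin and TIE receptors (Pearson's r = 0.986 over 10 mice, the highest of all tested genes with reads in every mouse and therefore selected as such). Cd93, an endothelial surface lectin, followed at r = 0.975. Stard9, 2810410L24Rik, Dgkz, App, Mpdz, Slc40a1, Ttc7b and Tmc6 completed the 10 most like genes, down to r = 0.941. By the same measure, each marker against the mean of the other 9, Cdh5 (r = 0.929) and Tie1 (r = 0.893) were closest and Vwf (r = 0.571) and Emcn (r = 0.092) farthest. These values describe the libraries, whose points share their scaling. Ptprb itself was at 173 ± 16.5 CPM in Axl KO against 197 ± 22.9 CPM in WT mice (SD, n = 5 each). Its log2 fold change was -0.18, with an adjusted p of 0.601 in the edgeR test.

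Further endothelial genes were read from the same fit in 8 lists, and none of them passed the adjusted threshold in the edgeR fit. The lists held 77 distinct tested genes. By unadjusted p, Tjp1, Aqp1 and Tcf15 were under 0.05 on the lower side and Thbd and Unc5b on the higher side. Over all tested genes, 3.86% were called lower and 4.54% higher. These counts, and the medians of lists near 0, moved when single mice were left out, and the values that moved most are given with each list. The shares of all tested genes are those with all mice, for these and the later lists. Counts from fits without a mouse cannot be set against them. In the edgeR test without Axl KO replicate 3, Egfl7 had an unadjusted p of 0.0187 and an adjusted p of 0.247. With all mice the same test gave 0.0189 and 0.571, so small p were more common over all genes without that mouse. Of 14 endothelial transcription factors tested, 13 were lower in Axl KO mice. The median of their log2 fold changes was -0.23, and 50.2% of all tested genes were lower. None of the 14 had an unadjusted p under 0.05 with all mice, whereas 5 of 14 had one without Axl KO replicate 3 (median -0.31), 2 without WT replicate 3, and 1 without Axl KO replicate 2 or 4, without WT replicate 1, 2 or 4, or with a replicate block. The lowest p was that of Gata2, at 4.20 ± 1.00 CPM against 5.68 ± 1.24 CPM (SD, n = 5 each), and the most abundant per kb was Ets1, with a log2 fold change of -0.066. Without WT replicate 5, 12 of the 14 were lower and the median was -0.14, and with a skeletal muscle covariate it was -0.12, again with 12 of 14 lower. Of 16 receptors and surface proteins of endothelium 7 were lower and 9 higher, and the median was 0.013. It turned to -0.0068 and -0.0076 without WT replicates 2 and 3, and without WT replicate 5 it was 0.086 with 4 of 16 lower. The count with an unadjusted p under 0.05 went from 0 to 4 without Axl KO replicate 3 and to 3 without WT replicate 5. Nrp1, a co-receptor of VEGF and the most abundant of them per kb, was at 382 ± 20.01 CPM in Axl KO against 354 ± 20.1 CPM in WT mice (SD, n = 5 each).

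Junction and adhesion genes beyond the 10 markers were lower for 8 of 11 tested, with a median log2 fold change of -0.12. Tjp1, which encodes the tight junction scaffold ZO-1, was at 122 ± 10.2 CPM in Axl KO against 139 ± 10.04 CPM in WT mice (SD, n = 5 each). The edgeR fit gave a log2 fold change of -0.19 with a standard error of 0.071, an unadjusted p of 0.0205 and an adjusted p of 0.571. Over the left-out mice the count of junction genes with an unadjusted p under 0.05 ran from 0, without Axl KO replicate 1 or WT replicate 5, to 5 without Axl KO replicate 3. Small p were more common over all genes without Axl KO replicate 3, so this count is not read as a result about the list. Cgnl1, the paracingulin gene and the most abundant of this list per kb, had a log2 fold change of -0.12. Of 10 capillary genes 6 were lower, with a median of -0.049, and 2 of them had an unadjusted p under 0.05, beside 8.4% of all genes and 3.86% on the lower side. Without Axl KO replicate 1 the median was 0.029, and with the muscle covariate 0.022, each with 4 of 10 lower and 0 under that p. It was -0.092 without Axl KO replicate 3, -0.030 and -0.023 without Axl KO replicates 4 and 5, and -0.026 without WT replicate 5. Tcf15, a transcription factor of capillary endothelium, was at 4.12 ± 0.784 CPM against 5.68 ± 0.903 CPM (SD, n = 5 each), and Aqp1, the water channel named here after its values were seen, was at 253 ± 86.0 CPM against 355 ± 16.5 CPM (SD, n = 5 each). Cav1, the caveolin that is also abundant in adipocytes, had a log2 fold change of -0.042. Genes of haemostasis and vessel tone were lower for 5 of 9 (median -0.0053). Their median had no steady sign, as it ran from -0.045 without Axl KO replicate 5 to 0.091 without Axl KO replicate 1, and the call of 1 gene was lost without Axl KO replicate 4 or 5 or WT replicate 2 or 3. Thbd, which encodes the anticoagulant receptor thrombomodulin, was higher in Axl KO mice at 25.6 ± 2.33 CPM against 22.1 ± 2.05 CPM (SD, n = 5 each), with an unadjusted p of 0.0284 in the edgeR test. Ece1, the endothelin-converting enzyme, had a log2 fold change of -0.0053.

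Vessel subtypes gave small medians that single mice moved. Arterial genes were lower for 3 of 9 with a median log2 fold change of 0.021, and Unc5b, a netrin receptor of arterial endothelium, was at 10.7 ± 1.33 CPM in Axl KO against 8.27 ± 1.37 CPM in WT mice (SD, n = 5 each), with an unadjusted p of 0.0149 in the edgeR test. The direction of the arterial list rested on single mice, since 7 of 9 were lower without WT replicate 3 (median -0.078) and 1 of 9 without WT replicate 5 (median 0.16). Its median was also below 0 without Axl KO replicate 1, 3 or 5 or WT replicate 2. Jag1, the Notch ligand, had a log2 fold change of 0.021. Venous genes were lower for 3 of 5 tested, with a median of -0.093. It lay between -0.058 and -0.050 without Axl KO replicate 1 or 5 or WT replicate 3, and was -0.14 and -0.16 without WT replicate 1 and Axl KO replicate 4. Ephb4, the venous ephrin receptor, had a log2 fold change of -0.15 and Lrg1 one of 0.0089. Lymphatic genes, lower for 3 of 5 tested with a median of -0.15, were sparse, with summed levels of 19.7 to 41.9 CPM in Axl KO and 24.7 to 42.4 CPM in WT mice. Their median lay between -0.10 and -0.075 without Axl KO replicate 1 or 4 or without WT replicate 2 or 5. Lyve1 had a log2 fold change of 0.011 and Reln one of -0.37.

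Other cell types of the depot were read from the same fit. Genes of pericytes and smooth muscle, the mural cells that sit on endothelium, were lower for 10 of 12, with a median log2 fold change of -0.12, and Notch3 had an unadjusted p of 0.0146 in the edgeR test. The count of mural genes with an unadjusted p under 0.05 was 4 without Axl KO replicate 3. For this and the counts below, the share of all tested genes in fits without a mouse or with a block is not given. Such counts are therefore not read as results about these lists. Rgs5, the most abundant, was at 428 ± 44.3 CPM in Axl KO against 476 ± 25.3 CPM in WT mice (SD, n = 5 each). Fibroblast genes were lower for 8 of 8 (median -0.32), among them Col1a1 and Col1a2 with unadjusted p of 0.0290 and 0.0255 in the edgeR test, with Col3a1 at 208 ± 73.3 CPM against 271 ± 46.0 CPM (SD, n = 5 each). Without Axl KO replicate 5 the medians were -0.067 for the mural list (8 of 12 lower), -0.21 for the fibroblast list (7 of 8 lower) and -2.03 for the list of skeletal muscle. The count of fibroblast genes with an unadjusted p under 0.05 was 0 without Axl KO replicate 4 or 5 or WT replicate 1 or 3, and 4 without Axl KO replicate 1 or 3. Genes of skeletal muscle, which adjoins the depot, were lower for 10 of 10 with a median of -1.05, and 0 of the 10 had an unadjusted p under 0.05 with all mice. That count was 5 without Axl KO replicate 5, and with a replicate block it was 1 with a median of -2.42. Their summed level ran from 6.19 to 3371 CPM in Axl KO and from 821 to 4035 CPM in WT mice, with 0 of the 10 genes at 0 in any mouse, and Myh4 was the most abundant. The summed level was 25.1 and 6.19 CPM in Axl KO replicates 1 and 2, and 821 CPM in WT replicate 5, the mouse highest in endothelial genes. With the muscle level as a covariate, the median log2 fold change of the 10 endothelial identity genes was -0.12, 8 of 10 were lower and the smallest adjusted p was 0.73 in the edgeR fit.

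Adipocyte genes were lower for 3 of 10, with a median log2 fold change of 0.083, and summed to between 19687 and 25295 CPM in Axl KO and between 19067 and 21671 CPM in WT mice. Fabp4 was the most abundant, and Ucp1, the uncoupling protein of brown fat, had a log2 fold change of 0.43 (unadjusted p = 0.0185 in the edgeR test). The count of adipocyte genes with an unadjusted p under 0.05 was 4 without Axl KO replicate 3 and 0 without Axl KO replicate 5. The share of all tested genes under that p in those 2 fits is not given. Notch3, Col1a1, Col1a2 and Ucp1 are named after their values were seen. The part of these other cell types in the endothelial values was not tested. Macrophage genes (9 tested, 5 lower, median -0.0034, Lyz2 the most abundant) and erythroid genes (5 tested, 2 lower, median 0.021, Hbb-bs the most abundant) had medians whose sign single mice turned. Without Axl KO replicate 3, 8 of 9 macrophage genes (median -0.16) and 4 of 5 erythroid genes (median -0.16) were lower. Without Axl KO replicate 5 these were 8 of 10 (median -0.14) and 5 of 5 (median -0.097), while without Axl KO replicate 4 the medians were 0.11 and 0.098. With the muscle covariate they were 0.14 and 0.21, the latter with 5 of 5 higher. Platelets also carry Pecam1, Esam and Vwf, and the platelet list summed to 6.96 to 9.79 CPM in Axl KO and 4.77 to 7.42 CPM in WT mice, with 2 of its 8 genes above the filter and both higher, Pf4 the most abundant. Over the 10 mice the 8 platelet genes had 308 reads for Pf4, 106 for Itga2b, 63 for Ppbp, 46 for Gp1bb, 7 for Gp6, 5 for Gp9, 5 for Treml1 and 4 for Gp1ba. Mean levels in Axl KO against WT mice were 1.63 ± 0.259 and 1.302 ± 0.127 CPM for Itga2b, 1.06 ± 0.566 and 0.717 ± 0.243 CPM for Ppbp, and 0.820 ± 0.338 and 0.466 ± 0.213 CPM for Gp1bb (SD, n = 5 each). Gp1ba and Gp9 went the other way, with 0 CPM in Axl KO against 0.103 ± 0.164 and 0.12 ± 0.174 CPM in WT mice (SD, n = 5 each). In the edgeR fit with no filter on low counts, 2 of the 8 platelet genes were lower in Axl KO mice. The platelet genes other than Pf4 are named after their values were seen. Lymphocyte genes summed to 11.4 to 21.7 CPM in Axl KO and 13.1 to 18.7 CPM in WT mice, and Ptprc, the 1 gene of 8 above the filter, had a log2 fold change of -0.080, which was -0.26 without Axl KO replicate 3 and 0.0079 without Axl KO replicate 1.

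**Figure D5:**
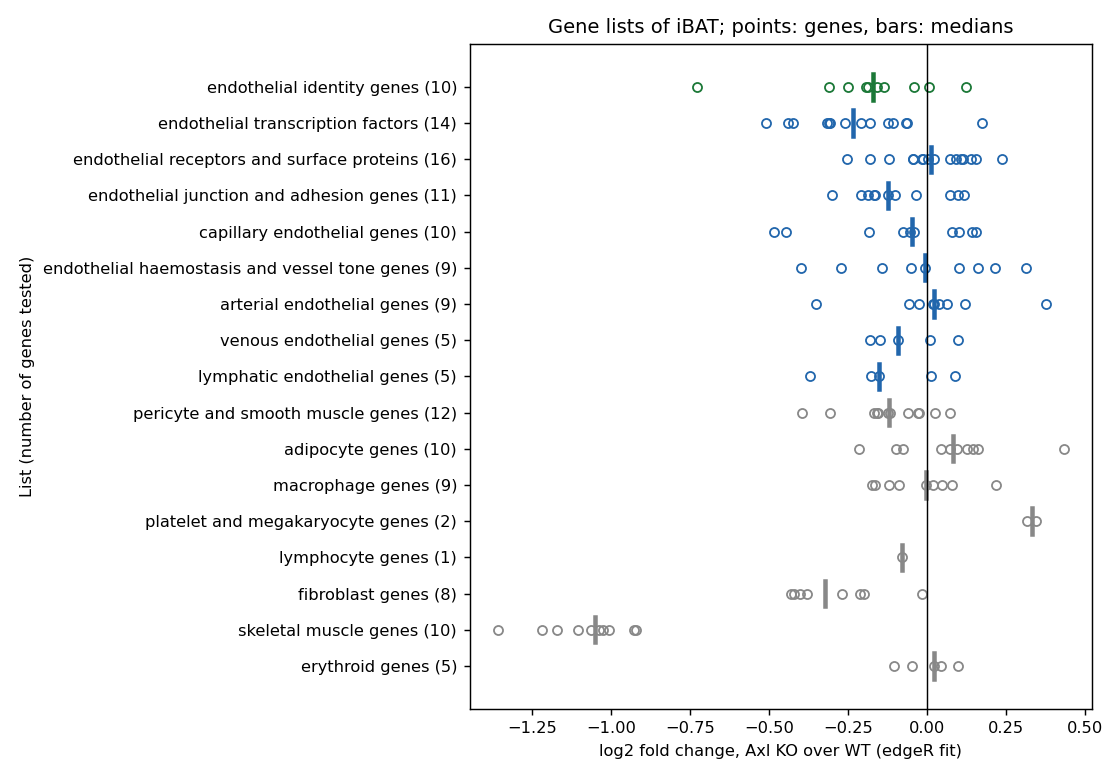
Difference of Axl KO from WT mice (x axis, log2 fold change, edgeR fit) for every tested gene in the endothelial identity list (green), 8 other endothelial lists (blue) and 8 lists of other cell types (grey), with the number of genes tested in brackets; circles are genes and bars are medians. The median is -0.17 for the identity genes, -0.23 for endothelial transcription factors, 0.013 for endothelial receptors and -1.05 for skeletal muscle genes.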

How the data were processed

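RNA of iBAT from 10 mice had been sequenced, 5 Axl KO and 5 WT. For every mouse the authors deposited a raw count of reads for each of 41249 Ensembl genes, neither normalized nor pooled. The paper's methods name Trim Galore, hisat2 and GRCm38, whereas the submitters' processing notes list Trimmomatic 0.36, STAR 2.6.1c and GRCm38.p5. They also differ on rRNA depletion and polyadenylated RNA. The counting tool, strand setting and annotation release are not given in the sources used here. Symbols, exons and coordinates were taken from GENCODE M21 (GRCm38), in which 41163 identifiers were found; Ccl21a, shared by 2 identifiers, was not assigned.

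Counts were analysed with edgeR 4.0.16 under R 4.3.3, by its quasi-likelihood test after TMM scaling and without a covariate, over 13739 genes with a mean above 1 CPM, with Benjamini-Hochberg adjustment over all of them and a threshold of 0.05. Standard errors and 95% intervals came from the same fit. It was also run on simulated counts, drawn gene by gene and without mice that stand apart. That run therefore cannot show how the intervals hold in these data. CPM used TMM-scaled library sizes. Single genes were also compared with two-sided exact permutation tests of log2 CPM (scipy 1.17.1). No pair of libraries was alike within sampling noise, since the lowest chi-square per gene was 5.04, so each was treated as 1 replicate. Library totals of 5431014 to 9580215 reads limit the precision of genes with few reads.

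The members and lists were chosen with earlier results of these data known. The genes named are the 10 markers, Axl, in each endothelial list the gene with the lowest p and the most abundant per kb, in each other list the most abundant, the 10 genes most like the markers, and those marked as chosen later. Alternatives were DESeq2 1.42.0, RLE size factors, filterByExpr, no filter, protein-coding genes only, a muscle covariate, a replicate block and each mouse left out; the counts and medians of the other lists were recomputed under each of these after their values were seen.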

Additional observations from a re-analysis of the deposited data

Results flagged for a closer look

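Over 22 groups of 5 mice (10 genes and their mean, in 2 genotypes), 4 held a mouse standing apart, with a gap to the next mouse above 0.71 times the whole spread, and chance gives about 1.1 such groups. WT replicate 5 was far above the other WT mice for Cdh5 (145.2 CPM, nearest mouse 107.1 CPM), Tie1 (80.8 CPM, nearest mouse 56.0 CPM) and Cldn5 (30.2 CPM, nearest mouse 20.9 CPM). Axl KO replicate 3 was far above the other Axl KO mice for Pecam1 (140.9 CPM, nearest mouse 104.8 CPM). Without WT replicate 5 the log2 fold changes were -0.036 for Cdh5, -0.049 for Tie1 and -0.58 for Cldn5, and without Axl KO replicate 3 that of Pecam1 was -0.16. The genes share their libraries, so these are not 4 independent cases.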

How the results depend on the processing

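The number of genes called among all those tested was 1 in edgeR's quasi-likelihood test under each normalization, filter and left-out mouse, and 9 with DESeq2, the exception. The number of endothelial identity genes called was 0 under every alternative run, DESeq2 included, while 1 to 3 of them had an unadjusted p under 0.05 in the edgeR fits. The share of all genes under that p is given for the fit with all mice and not for those without a mouse. Their median log2 fold change ranged from -0.25 without Axl KO replicate 3 to -0.049 without WT replicate 5. Signs turned for Pecam1 and Vwf, the genes nearest to 0: with the muscle covariate Pecam1 was at 0.023 and Vwf at -0.078, Pecam1 ranged from -0.16 to 0.051 and Vwf from -0.11 to 0.14 over the left-out mice, with Pecam1 at 0.0080 without Axl KO replicate 1, and Vwf at -0.024 and -0.031 without Axl KO replicates 2 and 3 and at -0.030 and -0.014 without WT replicates 2 and 4. Their cause was not tested. With mice left out in turn, edgeR's adjusted p stayed at or above 0.126 for each of the 10. No pairing of mice by replicate number was seen. Deviations of same-numbered mice correlated between -0.356 and 0.373, and 2 of 10 mice were closest to their own number. This check cannot exclude a pairing, since other differences between mice also enter the deviations. With a replicate block, 1 gene was called, 0 of the 10 markers, and Egfl7 had an unadjusted p of 0.0508 in the edgeR test. Counts of 45 to 240 reads limit Cldn5, and 47 to 122 reads Erg.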
